A study of Mus musculus with 6 samples.

Results

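Chemokines are small secreted or membrane-anchored proteins that guide migrating cells, and chemokine receptors are the G protein-coupled receptors that read them. The members described here are the genes whose symbol consists of a chemokine ligand or receptor stem (Ccl, Cxcl, Xcl, Cx3cl, Ccr, Cxcr, Xcr or Cx3cr), a number and at most 1 further letter. The rule found 55 genes among the 34245 genes of the expression table, 18 receptors and 37 ligands. Cxcl11 and the Ccl21 copies other than Ccl21a and Ccl21b were not analysed here.

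RNA-seq was performed on 3 independent primary peripheral T-cell lymphomas (PTCL) from lymph nodes of FVB mice that carry 1 intact and 1 inactivated germline allele of the DNA methyltransferase gene Dnmt3b (Dnmt3b+/-). Every tumor has this genotype, the labels give no age, and no treatment is named. Whole-genome bisulfite data of the same series, with 3 samples, and RNA-seq of control CD8+ T-cells and of Dnmt3a-deficient tumors were not analysed here. With a single group, no difference between conditions could be tested, and all values describe 3 tumors.

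T cells enter a lymph node across specialised venules, follow CCL19 and CCL21 made by stromal cells through the receptor CCR7, and leave along a gradient of a lipid, sphingosine 1-phosphate. Once activated they lower CCR7 and gain receptors for inflamed tissue such as CXCR3 and CXCR6, while effector CD8+ T cells themselves release CCL3, CCL4, CCL5 and XCL1. Many other ligands come from macrophages, dendritic cells, endothelium and fibroblastic reticular cells. A bulk lymphoma library can thus hold receptor and ligand RNA of several cell types, and the source of the RNA was not measured here.

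Levels are FPKM, fragments scaled to the exon length of a gene and to the depth of the library, a scale on which genes can be compared with each other. The depth behind tumors 1, 2 and 3 was inferred from the deposited values of genes without a read, as 30726570, 18969988 and 20770928 reads. Reads per gene were recovered from FPKM and exon length, and they set the 95% intervals given with ratios between 2 tumors. These intervals are exact binomial (Clopper-Pearson), cover counting error only and compare libraries, not conditions. Whether the mates of a pair were counted once or apart is not given in the sources used here, and if apart, the intervals are too narrow. In the deposited values a gene without a read carries the FPKM of 0.9 read, so such a gene is written here as having no read, which allows a level of up to that of 3 reads. Sums over genes include these small deposited values.

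The labelled tissue was checked against marker genes. All 7 T cell markers were above 0.2 FPKM in every tumor, with sums of 1133, 868 and 1242 FPKM in tumors 1, 2 and 3. The most abundant of them by mean was Cd8b1, a chain of the CD8 co-receptor, at 435, 166 and 443 FPKM. B cells are residents of lymph nodes, and all 6 B cell markers were also above 0.2 FPKM in every tumor, with sums of 59.6, 14.0 and 106 FPKM and Cd79a, a chain of the B cell receptor complex, as the most abundant at 23.1, 7.31 and 49.0 FPKM. B cell markers were thus lowest in tumor 2 for the whole list. The 8 pancreatic acinar markers summed to 87.0, 440.3 and 0.657 FPKM, led by Ctrb1 at 33.9 and 198 FPKM in tumors 1 and 2, and in tumor 3 Ctrb1 and Cpa1 had no read. This list was thus read in tumors 1 and 2 and with at most 7 reads a gene in tumor 3, and its part in the chemokine values was not tested. In bulk RNA, fewer cells of a type and less RNA per cell cannot be told apart.

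Of the 55 members, 27 (49.1%) were above 0.2 FPKM in every tumor, against 36.7% of all genes. This held for 13 of the 18 receptors and 14 of the 37 ligands. No read was found in any tumor for 7 members, namely Cxcr1, Ccl21b, Ccl26, Ccl27b, Cxcl3, Cxcl15 and Cxcl17, against 39.3% of all genes with an exon length, and for Ccl21b and Ccl27b shared sequence makes this uninformative. A mean of at least 0.2 FPKM was reached by 40 members, and this filter lets in genes that are high in 1 tumor alone, among members and among all genes. The receptors of tumors 1, 2 and 3 summed to 231, 480.0 and 382 FPKM, a mean of 364 ± 126 FPKM (SD, n = 3). The ligands summed to 478, 385 and 818 FPKM in the same order, a mean of 560.0 ± 228 FPKM (SD, n = 3). Receptor RNA was thus highest in tumor 2 and ligand RNA in tumor 3, where a single ligand, Ccl5, made up 89.2% of the sum. Ligands other than Ccl5 were lowest in that tumor, at 239, 191 and 88.0 FPKM in tumors 1, 2 and 3.

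Values of these genes were spread widely over the tumors. The fold between the highest and the lowest tumor, calculated with 0.1 FPKM added to both, had a median of 4.80 over the 40 members, 3.59 over 15 receptors and 7.43 over 25 ligands, against 1.77 over the 14733 genes with such a mean. With unread values set to the level of 3 reads, the medians were 4.15 for the members and 1.76 for all genes. A single tumor was above 2 times the other 2 together for 10 of the 40 members (25.0%), against 9.81% of all genes. Of these 10, 9 were ligands and the receptor was Ccr1, 6 were highest in tumor 1, 4 in tumor 2 and none in tumor 3. Asking only for more than the other 2 together gave 31 of the 40 members (77.5%), against 29.0% of all genes.

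**Figure D1:**
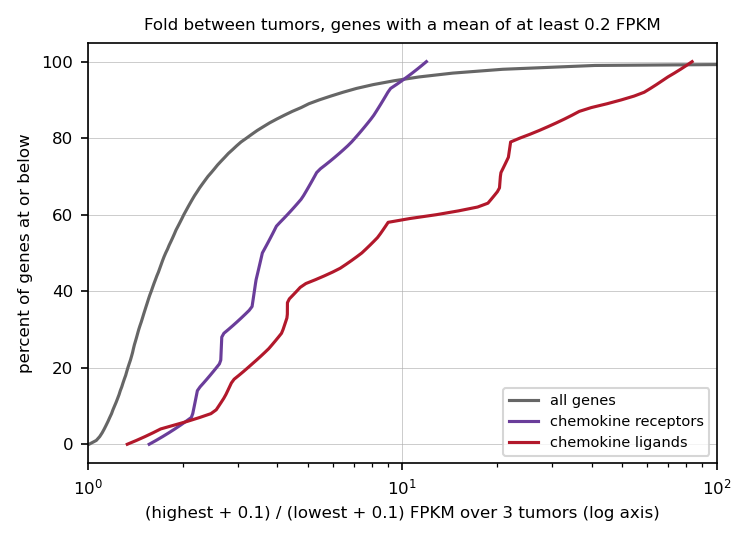
Cumulative distribution of the fold between the highest and the lowest of 3 tumors, (highest + 0.1) / (lowest + 0.1) FPKM, for genes with a mean of at least 0.2 FPKM; the x axis is logarithmic and stops at 100, and the y axis is the percent of genes at or below a fold. The line of the 15 receptors crosses 50% at 3.59 and that of the 25 ligands at 7.43, to the right of all 14733 genes at 1.77.

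Of the 40 members, 22 had their highest value in tumor 1, 13 in tumor 2 and 5 in tumor 3, close to the shares of all genes (49.8%, 35.3% and 15.0%). The lowest value was that of tumor 1 for 6 members, of tumor 2 for 12 and of tumor 3 for 22, where all genes had 23.9%, 36.2% and 39.9%. Among the ligands alone the lowest value lay in tumor 3 for 18 of 25 (72.0%), and among the receptors for 4 of 15 (26.7%). Tumor 3 was therefore the low tumor for most ligands although it held the highest ligand sum. Other scalings of the tumors moved the ratio between 2 of them by at most 1.17-fold with median-of-ratios factors, 1.19-fold with sums of 1000000 and 1.39-fold with the level of CD3 genes, so a ratio smaller than these may change its direction. The highest tumor so changed for 5 of the 40 members, Ccl4, Ccl7, Ccl22, Ccr6 and Cxcl12, and the lowest for 3 other members, Ccr2 and Cxcr4 among them.

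Receptors of T cells led the receptor genes. Cxcr3 (ENSMUSG00000050232, chromosome X from 101731535 to 101734269 of mm10), the receptor of CXCL9 and CXCL10 on effector T cells and natural killer cells, had 28.4, 195 and 174 FPKM in tumors 1, 2 and 3. Tumors 2 and 3 were far above tumor 1, by 6.84-fold (95% interval 6.47 to 7.24) and 6.13-fold (5.79 to 6.49), while they differed from each other by 1.12-fold (1.08 to 1.16). Cxcr3 was the most abundant receptor of tumors 2 and 3 and the third of tumor 1. Relative to the summed FPKM of Cd3d, Cd3e and Cd3g, components of the T cell receptor complex (246, 318 and 340.1 FPKM), Cxcr3 still varied 5.27-fold.

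Ccr7 (ENSMUSG00000037944, chromosome 11 from 99144196 to 99155077), the receptor for entry into the T cell zone, had 71.2, 33.2 and 53.8 FPKM in tumors 1, 2 and 3. It was the most abundant receptor of tumor 1 and was lowest in tumor 2, the reverse of Cxcr3 for these 2 tumors. The ratio of tumor 1 to tumor 2 was 2.15 (2.02 to 2.29). Cxcr6, the receptor of the membrane-anchored ligand CXCL16 on effector and tissue-dwelling T cells, had 20.7, 71.2 and 49.4 FPKM. Like Cxcr3, it was lowest in tumor 1 under every scaling.

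Cxcr4, the CXCL12 receptor that holds cells in bone marrow and lymphoid niches, had 18.6, 62.0 and 25.7 FPKM. It was highest in tumor 2. Ccr2, which draws inflammatory monocytes and is also found on effector T cells, varied least of the receptors named here, with 35.0, 53.2 and 34.0 FPKM. Its values in tumors 1 and 3 could not be told apart by counting error, with a ratio of 1.03 (0.993 to 1.07).

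Ccr4, the receptor of CCL17 and CCL22 on type 2 helper and regulatory T cells and on T cells bound for skin, followed another order, with 18.2, 10.7 and 1.43 FPKM. Tumor 1 was 12.7-fold (10.3 to 15.8) above tumor 3 and 1.70-fold (1.55 to 1.87) above tumor 2. Relative to the CD3 sum, Ccr4 varied 17.6-fold, the widest range among the 6 receptors scaled this way, Cxcr3, Cxcr6, Cxcr4, Ccr4, Ccr2 and Ccr7. Among the 5 receptors Cxcr3, Ccr7, Cxcr6, Ccr2 and Cxcr4 lay 75.4% of the receptor FPKM of tumor 1, 86.3% of tumor 2 and 88.3% of tumor 3.

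**Figure D2:**
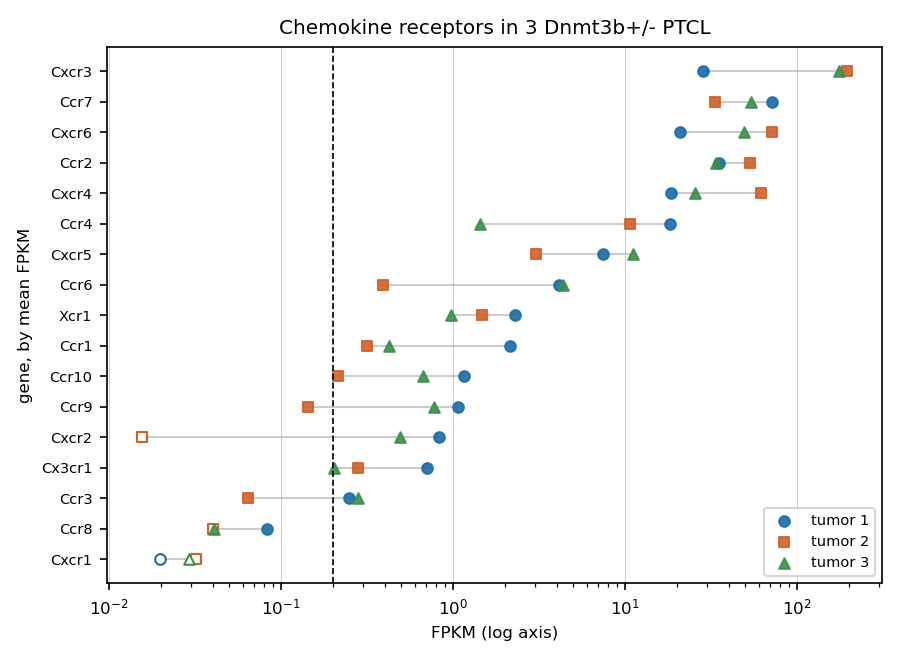
FPKM (logarithmic x axis) of 17 chemokine receptors in each of 3 Dnmt3b+/- PTCL, ordered by mean; each point is 1 tumor, open points have no read, grey lines join the lowest and the highest tumor and the dashed line is 0.2 FPKM. Cxcr3 and Cxcr6 are lowest in tumor 1, Ccr4 is lowest in tumor 3 at 1.43 FPKM, and Cxcr5 and Ccr6 are lowest in tumor 2.

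Receptors of B cells and follicular T cells were lowest in tumor 2. Cxcr5, which brings B cells and follicular helper T cells to CXCL13, had 7.44, 3.02 and 11.1 FPKM. Ccr6, the CCL20 receptor of B cells and of T cells that make interleukin-17, had 4.16, 0.390 and 4.37 FPKM, and its exon length gave no whole reads, so no interval is given. The B cell markers were lowest in the same tumor, 6 of 6, at 59.6, 14.0 and 106 FPKM in sum, and their part in these values was not tested.

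Of receptors found mostly on myeloid cells, Xcr1, which marks dendritic cells that present antigen to CD8+ T cells, had 2.29, 1.47 and 0.973 FPKM. Ccr1, a receptor of CCL3 and CCL5 on monocytes and neutrophils, had 2.14, 0.316 and 0.425 FPKM and was the only receptor with 1 tumor above 2 times the other 2 together. Both were highest in tumor 1. The 7 receptors listed as myeloid summed to 41.2, 55.4 and 36.4 FPKM, highest in tumor 2. Most of this sum was Ccr2, which is on that list and had 35.0, 53.2 and 34.0 FPKM. The 9 macrophage and monocyte markers, all above 0.2 FPKM in every tumor, summed to 438, 148 and 36.8 FPKM, and 8 of them were highest in tumor 1. The most abundant by mean was Lyz2, lysozyme, with 215, 33.1 and 20.3 FPKM. The 7 dendritic cell markers summed to 10.1, 7.13 and 3.90 FPKM, with Itgax, an integrin chain, as the most abundant by mean at 3.18, 1.47 and 0.762 FPKM and with Cd209a at 3 reads in tumor 1. These sums had the order of Xcr1, but 4 of the 7 markers were highest in tumor 2 as deposited. Among them were 2 markers of XCR1-bearing dendritic cells, Clec9a with 1.27, 2.29 and 0.731 FPKM and Batf3 with 1.16, 1.32 and 0.512 FPKM, of which Batf3 differs between tumors 1 and 2 by less than scaling can shift. The part of dendritic cells in the Xcr1 values was not tested.

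The 8 receptors with a mean under 1 FPKM lay between Ccr1 at a mean of 0.959 and Cxcr1, without a read. Ccr3, the eotaxin receptor of eosinophils, had 0.249, 0.0644 and 0.280 FPKM, and Ccr8, found on regulatory and type 2 helper T cells, had 3, 0 and 1 reads. No eosinophil marker of 3 was above 0.2 FPKM in every tumor, and together the 3 had 23, 0 and 5 reads, with Epx, a granule peroxidase, without a read in tumor 3 as well as tumor 2. Cxcr2, the main receptor of neutrophils and named after its values were seen, had 0.833 and 0.490 FPKM in tumors 1 and 3 and no read in tumor 2. The sum of the 6 neutrophil markers had the same order, with 39.6, 1.71 and 16.9 FPKM, and 4 of them were highest in tumor 1, led by S100a9, a calcium-binding protein of granulocytes, at 22.6, 1.01 and 10.4 FPKM. Camp, a granule peptide, had 6, 1 and 9 reads and was highest in tumor 3. Ly6g, which defines mouse neutrophils, had 1 read in tumor 1 and none in the others, so the defining marker was at the floor. The part of neutrophils in the Cxcr2 values was not tested.

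Of the 5 ligands listed as released by effector T cells and natural killer cells, Ccl5, Xcl1 and Ccl4 were the most abundant ligands by mean. In tumor 1, however, Xcl1 had rank 12 among the ligands, and Ccl8 and Cxcl9 had ranks 2 and 3. Ccl5 (ENSMUSG00000035042, chromosome 11 from 83525778 to 83530518), which acts on CCR1 and CCR3 among others, had 238, 194 and 729 FPKM and was the most abundant member in each of tumors 1 and 3, ranking 88 and 47 among all genes. In tumor 2 Cxcr3 had 195 FPKM and Ccl5 194, ranks 143 and 144. Tumor 3 was 3.06-fold (2.97 to 3.15) above tumor 1 and 3.76-fold (3.63 to 3.90) above tumor 2. Ccl5 was 49.9%, 50.4% and 89.2% of the ligand FPKM of the 3 tumors.

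Xcl1, which attracts XCR1-bearing dendritic cells, had 4.60, 86.9 and 35.6 FPKM. Tumor 2 was 18.9-fold (14.9 to 24.3) above tumor 1. Of its exon length 18.7% overlaps Gm20743 on the opposite strand, which had 0.226, 3.20 and 1.55 FPKM, so reads of the overlap cannot be assigned without strand. Ccl4 was the most even of the abundant ligands, with 27.6, 24.0 and 32.1 FPKM. Ccl3, its neighbor on the chromosome, had 12.3, 2.00 and 1.57 FPKM, 6.17-fold (4.21 to 9.38) higher in tumor 1 than in tumor 2. Ccl1 had 2 reads in tumor 1 and none in the others. The 3 natural killer cell markers summed to 20.7, 45.4 and 48.5 FPKM, mostly from Eomes, a transcription factor that CD8+ T cells also express, at 20.0, 39.5 and 45.0 FPKM. Ncr1, which defines natural killer cells, was at 0.380, 0.205 and 0.125 FPKM, highest in tumor 1. Klrb1c, which encodes the antigen NK1.1, had 0.308, 5.77 and 3.38 FPKM and was highest in tumor 2, as Xcl1 was. The 3 markers thus gave no common order, and the part of natural killer cells in the ligand values was not tested.

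**Figure D3:**
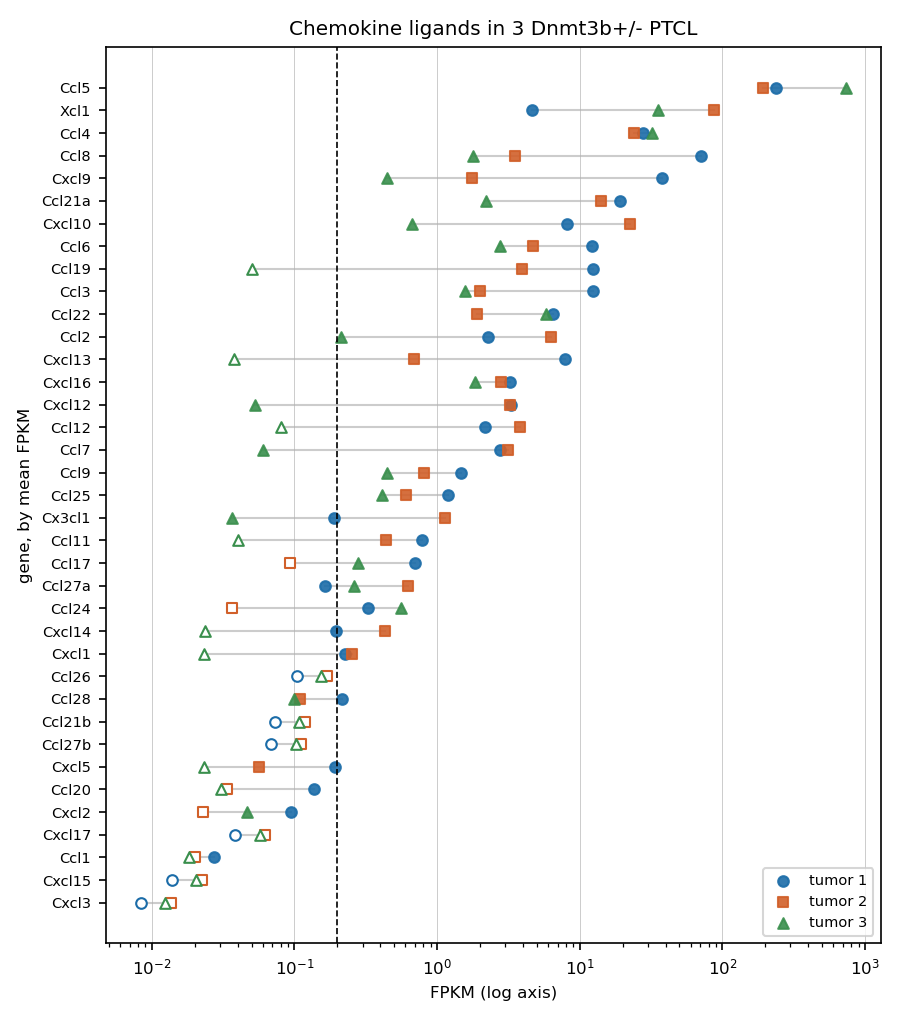
FPKM (logarithmic x axis) of the 37 chemokine ligands in each of 3 Dnmt3b+/- PTCL, ordered by mean; each point is 1 tumor, open points have no read, grey lines join the lowest and the highest tumor and the dashed line is 0.2 FPKM. Ccl5 is highest in tumor 3 at 729 FPKM, whereas Ccl8, Cxcl9, Ccl19 and Cxcl13 are highest in tumor 1 and most other ligands are lowest in tumor 3.

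The interferon-inducible ligands of CXCR3 differed in their highest tumor. Cxcl9, which interferon gamma induces in macrophages and stromal cells, had 37.8, 1.77 and 0.447 FPKM. Tumor 1 was 21.4-fold (17.6 to 26.4) above tumor 2 and 84.7-fold (58.5 to 128) above tumor 3. Cxcl10, induced by type I and type II interferons, had 8.14, 22.5 and 0.663 FPKM. Tumor 2 was 2.77-fold (2.49 to 3.08) above tumor 1 and 34.0-fold (23.8 to 50.3) above tumor 3. Together the pair gave 46.0, 24.3 and 1.11 FPKM, so that the ligands were highest where Cxcr3 was lowest, in tumor 1, and were at 1.11 FPKM in tumor 3, where Cxcr3 had 174 FPKM.

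All 10 genes of an interferon-induced list were above 0.2 FPKM in every tumor, with sums of 407, 940.0 and 382 FPKM and Isg15, a ubiquitin-like protein, as the most abundant at a mean of 126 FPKM. Of the 10 genes, 8 were highest in tumor 2, as Cxcl10 was, and 2 in tumor 1, as Cxcl9 was. These were the guanylate-binding proteins Gbp2, with 140.1, 58.7 and 29.0 FPKM, and Gbp4, with 54.0, 34.6 and 21.8 FPKM, both named after their values were seen. Macrophage markers summed to 438, 148 and 36.8 FPKM, and the part of either list in the values of Cxcl9 and Cxcl10 was not tested.

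The start regions of both genes, neighbors with a shared receptor, are given as sequence only. Their part in the values of the tumors was not tested. Promoter sequences were matched by symbol for 41 of the 55 members in the RefSeq table for GRCm38.p6, and the 250 bases before each start were searched on both strands. The motifs were the interferon-stimulated response element, GAAANNGAAA or its reverse TTTCNNTTTC, the interferon gamma-activated site, TTCNNNGAA, and the NF-kB consensus. The last was GGGRNWYYCC, with R for A or G, W for A or T and Y for C or T. Of 32851 windows of this length, 2.98%, 7.02% and 3.90% held the motifs in this order. Among 49 windows of member genes, 3, 3 and 8 held them. Cxcl9 (chr5:92328080-92328329, minus strand) held no exact match in this window. Inexact matches and longer stretches were not searched. Cxcl10 (chr5:92348890-92349139, minus strand) held the first motif from 213 to 204 bases before the start. It held the NF-kB consensus from 159 to 150 and from 103 to 94 bases. Both sequences run 5′ to 3′ up to the start, with matches in capitals, which describe letters and not bound sites.
Cxcl9: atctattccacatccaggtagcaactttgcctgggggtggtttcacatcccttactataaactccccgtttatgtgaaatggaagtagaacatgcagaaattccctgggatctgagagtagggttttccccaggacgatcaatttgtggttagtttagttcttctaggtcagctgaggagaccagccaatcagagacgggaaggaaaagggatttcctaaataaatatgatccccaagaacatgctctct
Cxcl10: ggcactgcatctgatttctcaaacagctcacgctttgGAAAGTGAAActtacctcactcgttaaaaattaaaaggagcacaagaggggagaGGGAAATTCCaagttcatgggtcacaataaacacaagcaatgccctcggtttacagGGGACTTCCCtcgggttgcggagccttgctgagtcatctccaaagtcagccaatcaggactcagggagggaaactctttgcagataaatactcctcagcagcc
The other windows with the interferon-stimulated response element were those of Ccl19, from 208 to 199 bases before the start, and Cxcl14, from 172 to 163 bases.

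Ligands that organise lymphoid tissue were low in tumor 3. Ccl21a, the CCR7 ligand of reticular cells and venules, had 19.3, 14.1 and 2.21 FPKM. Ccl19, the other CCR7 ligand, had 12.4 and 3.95 FPKM in tumors 1 and 2 and no read in tumor 3, at least 74.6-fold lower than in tumor 1. Cxcl13, which builds B cell follicles through CXCR5, had 7.87 and 0.688 FPKM and again no read in tumor 3, at least 62.6-fold lower than in tumor 1. Cxcl12, the CXCR4 ligand of stromal cells, had 3.28 and 3.26 FPKM in tumors 1 and 2 and 0.0530 in tumor 3, on 9 reads, 62.0-fold (32.5 to 136) lower than in tumor 1. All 4 genes were thus at their lowest in tumor 3, while tumors 1 and 2 differed from gene to gene, by 1.01-fold for Cxcl12, within counting error, and by 11.4-fold (6.82 to 20.7) for Cxcl13.

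Most stromal markers had their lowest values in the same tumor. The 6 markers of fibroblastic reticular cells summed to 6.28, 40.5 and 0.369 FPKM, all 6 lowest in tumor 3 and highest in tumor 2, with Col1a1, a collagen chain, as the most abundant by mean at 1.63, 15.5 and 0.315 FPKM. In tumor 3 Pdpn and Pdgfra had no read, Pdgfrb and Col3a1 1 read each and Col1a2 3 reads. The 5 endothelial markers summed to 17.6, 14.2 and 5.11 FPKM, with Pecam1, an adhesion protein also found on leukocytes, at 12.2, 10.9 and 4.86 FPKM, and Lyve1, of lymphatic endothelium, without a read in tumor 3. Of the follicular dendritic cell markers, 3 were measured and summed to 20.3, 12.7 and 5.24 FPKM, led by Clu, clusterin, at a mean of 10.6 FPKM. Fcer2a, which B cells also express, had 1.71, 0.648 and 3.71 FPKM, was highest in tumor 3 and made up most of the sum there. Coch, the more specific marker, had 17, 3 and 2 reads. The homing ligands summed to 42.9, 22.1 and 2.46 FPKM, so their order of tumors 1 and 2 was not that of the reticular cell markers. The part of these cells in the ligand values was not tested.

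Ligands that attract monocytes were also lowest in tumor 3, for each of the 5 on the list. Ccl6, a myeloid ligand of mice, had 12.2, 4.70 and 2.76 FPKM. Ccl2, the main CCR2 ligand, had 2.26, 6.30 and 0.212 FPKM, 29.8-fold (12.5 to 93.2) higher in tumor 2 than in tumor 3, where it had 5 reads. Ccl7 had 2.76, 3.16 and 0.0601 FPKM, the last from 1 read, and Ccl12 had 2.18 and 3.83 FPKM and no read in tumor 3, at least 14.2-fold lower than in tumor 2. The CCR2 ligands Ccl2 and Ccl12 were highest in tumor 2, whereas Ccl6 was highest in tumor 1. For Ccl7, the third CCR2 ligand, the ratio of tumor 2 to tumor 1, 1.14 (0.773 to 1.68), did not exceed counting error, and CD3 scaling put tumor 1 first.

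Ccl8, a ligand of CCR8 in mice that macrophages release, had 70.8, 3.51 and 1.79 FPKM. It was the second most abundant ligand of tumor 1, 20.2-fold (14.3 to 29.3) above tumor 2 and 39.5-fold (25.2 to 65.9) above tumor 3. Its receptor gene Ccr8 was at the floor in all 3 tumors. Macrophage markers were highest in tumor 1 as well (438, 148 and 36.8 FPKM in sum), and their part in the Ccl8 values was not tested. Ccl22, a dendritic cell product that binds CCR4, had 6.54, 1.90 and 5.78 FPKM and was low in tumor 2, with 3.43-fold (2.72 to 4.38) more in tumor 1. Ccl17, the other CCR4 ligand, had 11, 0 and 3 reads. The CCR4 ligands summed to 7.23, 2.00 and 6.06 FPKM. Their sum was thus highest in tumor 1, as Ccr4 was, but lowest in tumor 2, whereas Ccr4 was lowest in tumor 3. For Ccl22, which made up most of this sum, the ratio of tumor 1 to tumor 3, 1.13 (0.973 to 1.32), did not exceed counting error. Median-of-ratios factors put tumor 3 first for Ccl22.

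**Figure D4:**
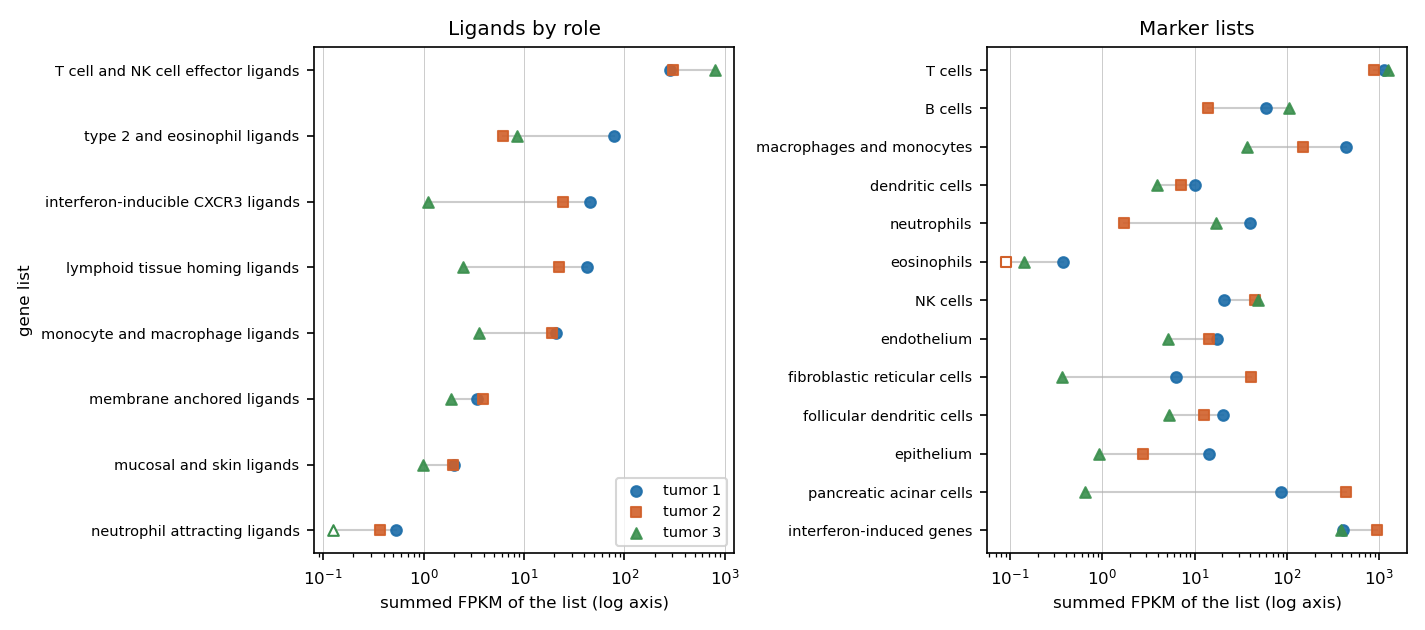
Summed FPKM (logarithmic x axis) of the chemokine ligands by role and of cell type marker lists and an interferon-induced list in each of 3 tumors; each point is 1 tumor, grey lines join the lowest and the highest, and open points are sums that come mostly from genes without a read. Ligands for homing sum to 2.46 FPKM in tumor 3, where the fibroblastic reticular cell markers sum to 0.369 FPKM, and the sum of the effector ligands is highest in tumor 3, where most of it is Ccl5.

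Cxcl16, the ligand of CXCR6 that is made as a membrane protein, had 3.22, 2.81 and 1.83 FPKM. Tumor 1 was 1.76-fold (1.41 to 2.20) above tumor 3. Its exons overlap those of Zmynd15 over 18.3% of their length. Cx3cl1, the other membrane-anchored ligand and named after its values were seen, had 0.190, 1.14 and 0.0368 FPKM, highest in tumor 2. Neutrophil attracting ligands were close to the floor, with 30, 11 and 2 reads over 5 genes, and none of the 5 was above 0.2 FPKM in every tumor. Mucosal and skin ligands summed to 2.02, 1.97 and 0.990 FPKM over 7 genes, and Ccl25, a thymus and gut ligand, was the most abundant by mean at 1.20, 0.602 and 0.414 FPKM. Ccl20, the CCR6 ligand, had 6 reads in tumor 1 and none in the others, although Ccr6 was above 4 FPKM in tumors 1 and 3. The 4 epithelial markers summed to 14.2, 2.75 and 0.913 FPKM, in tumor 1 nearly all from Cdh1, an adhesion protein, at 13.7, 0.934 and 0.410 FPKM, with Epcam, another adhesion protein, at 0.415, 1.14 and 0.307 FPKM and Krt8, a keratin of simple epithelia, at 1, 4 and 1 reads. In all, 20 of the 37 ligands had a mean under 1 FPKM.

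Many of these genes lie side by side, and neighbors shared their order of tumors in some places and not in others. Of the 55 members, 37 lie in 10 clusters, in which the next member is at most 250 kb away. In a cluster of 6 genes on chromosome 11, Ccl2 and Ccl12 were highest in tumor 2, whereas Ccl8, 13.3 kb beyond the start of Ccl12, was highest in tumor 1. In another cluster on the same chromosome, Ccl5 was highest in tumor 3, and Ccl9, Ccl6 and Ccl3, which lie between it and the even gene Ccl4, in tumor 1 and lowest in tumor 3. Ccl19 and Ccl21a, neighbors on chromosome 4, were also highest in tumor 1 and lowest in tumor 3. On chromosome 9, Cxcr6 and Ccr2 were highest in tumor 2, and Ccr9, Xcr1 and Ccr1 in tumor 1. Cxcl9 and Cxcl10, whose transcription starts lie 20.8 kb apart on chromosome 5, differed as given above. Some of these genes are below 1 FPKM and were named for their position. Neighbors were not compared with genes that lie apart.

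**Figure D5:**
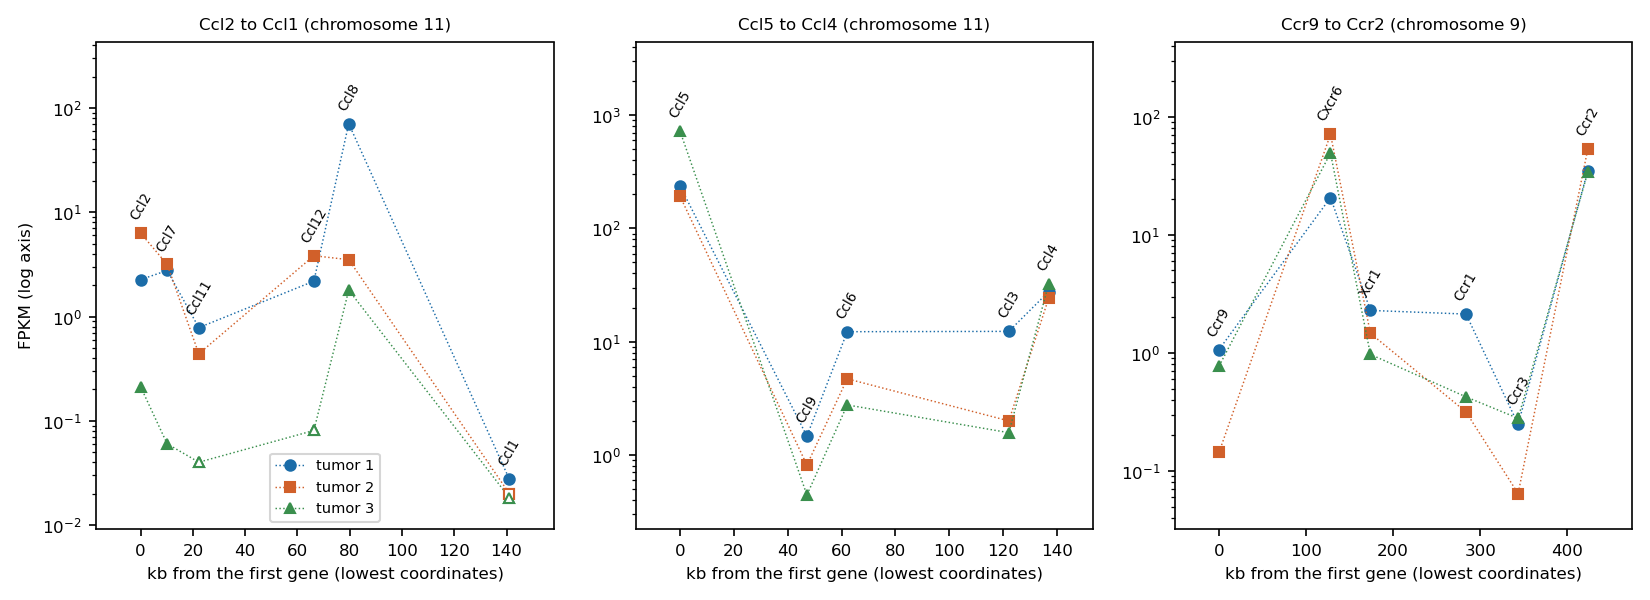
FPKM (logarithmic y axis) of members of 3 gene clusters against the distance in kb from the first gene of each cluster, taken between lowest coordinates; each point is 1 gene in 1 tumor, open points have no read, and dotted lines only join the points of a tumor. Ccl8 is highest in tumor 1 at 70.8 FPKM while Ccl2 and Ccl12 are highest in tumor 2. Cxcr6 and Ccr2 are highest in tumor 2, whereas Ccr9, Xcr1 and Ccr1 are highest in tumor 1.

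Receptors and their ligands were then set beside each other. Counted after the values were seen, 5 of 14 receptors with a mean of at least 0.2 FPKM (35.7%, and 6 under each other scaling) had their highest value in the tumor where the listed ligands had their highest sum. Of 180 combinations of these receptors with ligands listed for another receptor, 47.2% did. These combinations reuse the same receptors and ligands as the pairs, so the shares are not independent and no conclusion is drawn from them. Under each scaling, Ccr2 and its ligands were both highest in tumor 2. Ccr4, Ccr7, Ccr9 and Cxcr2 and the ligands of each were highest in tumor 1, also under each scaling. As deposited, 49.8% of all genes with such a mean were highest there. For Ccr4 this rests mostly on Ccl22, whose lead over tumor 3 did not exceed counting error. The Cxcr2 ligands were close to the floor, at 0.521, 0.346 and 0.105 FPKM. Exons of Ccr9 overlap a gene on the opposite strand over 21.5% of their length. Receptors were also found where ligands were scarce. Ccr7 was at 53.8 FPKM in tumor 3, where Ccl21a had 2.21 FPKM and Ccl19 no read. Cxcr5 was highest in tumor 3, where Cxcl13 had no read, and Cxcr4 had 25.7 FPKM there with Cxcl12 on 9 reads. Xcl1 was highest in tumor 2 and its receptor Xcr1 in tumor 1. Only RNA of bulk tissue was measured, so which cells met which ligand is not given by these values.

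By the fold between tumors, the machinery downstream of the receptors was more even than the members and near the value of all genes. Of 29 signaling genes, 28 were above 0.2 FPKM in every tumor, against 36.7% of all genes. Their median fold between tumors was 1.58, against 1.77 over all genes with a mean of at least 0.2 FPKM. The 3 most abundant were Coro1a, an actin regulator, at 351 ± 72.7 FPKM, the GTPase gene Rac2 at 237 ± 43.5 FPKM and Gnai2, the inhibitory G protein subunit that chemokine receptors use, at 69.8 ± 7.18 FPKM (SD, n = 3 each). A fold over 4 at a mean of at least 1 FPKM was found for 3 genes, all highest in tumor 1. Gnaq, the alpha subunit of another G protein, had 8.77, 0.298 and 0.553 FPKM. Tiam1, an exchange factor for Rac, had 3.41, 0.213 and 0.607 FPKM. Rgs16, which ends G protein signaling, had 2.42, 0.293 and 1.61 FPKM.

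Of 6 genes for processing of chemokines and sulfation of their receptors, 5 were above 0.2 FPKM in every tumor. Their median fold was 1.84, also near the 1.77 of all genes. Dpp4, a protease that trims several chemokines, had 24.7, 0.759 and 1.42 FPKM and was high in tumor 1 alone. The sulfotransferase gene Tpst2 and the sheddases Adam10 and Adam17, the latter 2 known for releasing membrane-anchored ligands, had 40.8 ± 3.25, 22.8 ± 4.79 and 9.33 ± 2.59 FPKM (SD, n = 3 each). Tpst1 had 3.96, 5.88 and 1.12 FPKM.

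Genes for entry into and exit from lymph nodes varied more, with a median fold of 3.80 over 7 genes. S1pr1, the receptor for exit, had 62.2, 5.83 and 42.1 FPKM and was low in tumor 2, where Ccr7 also was lowest. The integrin chains Itgb2, Itgb7 and Itgal had 128 ± 14.9, 117 ± 67.1 and 91.5 ± 29.5 FPKM (SD, n = 3 each). S1pr1 and Ccr7 were both lowest in tumor 2, and Cxcr6 and Cxcr4 highest there. S1pr5 had 0.143, 0.633 and 4.12 FPKM, highest in tumor 3, and Itga4, an integrin chain that pairs with Itgb7, had 15.2, 1.26 and 3.24 FPKM, highest in tumor 1.

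Among 10 chemokine-like and atypical genes that the naming rule leaves out, 2 were above 0.2 FPKM in every tumor, against 36.7% of all genes. These were Cklf at 4.52, 4.33 and 3.20 FPKM and Ccrl2 at 1.32, 8.26 and 0.556 FPKM. Ccrl2, which binds the attractant chemerin without signaling, was highest in tumor 2, whereas Cmklr1, a signaling chemerin receptor, had 2.20, 0.541 and 0.127 FPKM and was highest in tumor 1.

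Some members share sequence or exons with other genes, so their reads are uncertain. The table gives 8 members with over 10% of their exon length shared, Xcl1, Ccl27a, Ccl21b, Ccl27b, Ccl19, Ccl21a, Ccr9 and Cxcl16. All stretches of 100 bases of Ccl21b, 97.9% of those of Ccl27b, 50.3% of those of Ccl21a and 39.3% of those of Ccl19 recur in another gene, and reads that map to several places fall under the mapping quality limit used for these values. The lack of reads on Ccl21b and Ccl27b is therefore no measure of their level, and the values of Ccl21a and Ccl19 may leave out reads from the shared stretches. Without these 8 members, 24 members were above 0.2 FPKM in every tumor, 8 had 1 tumor above 2 times the other 2 together, and the median fold was 4.56.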

How the data were processed

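RNA was sequenced as 150 bp read pairs from 3 Dnmt3b+/- PTCL. Before deposition the authors trimmed the reads, mapped them to mm10 by STAR and counted those of mapping quality 50 or more over the merged exons of each gene in SeqMonk. The authors deposited linear FPKM for each tumor. The authors' comparison with DESeq2 was not used here.

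Members and gene lists were chosen with earlier results of these data known. Members with a mean of at least 1 FPKM are named with all values. Lower ones are named where they pair with such a member or have no read in any tumor. One receptor is part of all counts and sums of members and, like 1 gene of the lymph node list, is not reported here. FPKM were turned back into reads by the GENCODE M21 exon lengths of 34125 genes, and 92.1% of these genes gave whole reads in all 3 tumors (tolerance 0.02 read). Exon overlap and shared stretches of 100 bases came from the same annotation. Genes with a mean of at least 0.2 FPKM entered counts of uneven genes and folds, with a pseudocount of 0.1 FPKM. Since FPKM are normalized, count models were not used, and no test was possible within 1 group. The functions were tested on simulated reads.

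Alternatives were thresholds of 0.1 and 1 FPKM, pseudocounts of 0.01 and 1, no filter on the mean or a mean of at least 1 FPKM, a looser limit for uneven genes, median-of-ratios factors, sums of 1000000, the most abundant member left out and each tumor left out. Scaling to the CD3 genes, median-of-ratios factors for the members above 0.2 FPKM, leaving out members with shared sequence, the counts of the lowest tumor and the count of receptor and ligand pairs were chosen after seeing the data. Calculations were done in Python 3.11 with NumPy 2.4.6, pandas 2.3.3 and SciPy 1.17.1, and plots in matplotlib 3.10.9.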

Additional observations from a re-analysis of the deposited data

How the results depend on the processing

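Median-of-ratios factors shifted the median gene of tumors 1, 2 and 3 by -0.14, 0.03 and 0.09 on the log2 scale, and under them every count, median and sum stayed within 1.5 times, or 1 SD, of the reported value. Members above the threshold in every tumor numbered 17 at 1 FPKM, and between 28 and 34 with 1 tumor left out. Members with 1 tumor over the other 2 numbered 31 of 40 (77.5%) with the looser limit, which 29.0% of all genes met. With a mean of at least 1 FPKM, 13 members were highest in tumor 1 and 6 lowest in tumor 2. With sums of 1000000 or with CD3 scaling, the latter chosen after seeing the data, 3 were highest in tumor 3. The median fold was 2.80 with a pseudocount of 1, and between 2.60 and 2.72 with 1 tumor left out, where 2 tumors are compared and not 3. Sums of 1000000 raised the summed FPKM to 1750 for receptors and 2681 for ligands by construction. Without Cxcr3 the receptors summed to 232 FPKM, and without Ccl5 the ligands to 173. For each of the 26 named members with a mean of at least 1 FPKM, the mean with median-of-ratios factors stayed within 1 SD. With 1 of 3 values left out a mean cannot move by more than 1 SD, so this says nothing of stability. No paired analysis was possible because all 3 tumors form a single group.

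With 1 library per tumor, the spread between tumors cannot be told apart from that between libraries. Depth limits genes of few reads, and 3 reads of Ccl19 in tumor 3, its limit without a read, are 0.167 FPKM.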
